A study of Homo sapiens with 16 samples.

Results

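The proteasome is built from subunits whose genes carry systematic PSM names, and 41 such names of the PSMA, PSMB, PSMC, PSMD and PSME series were listed in the deposited gene tables once PSMB8 and PSMB9 were left out. A gene was kept at a level of at least 1 TPM, a transcript abundance scaled for gene length and library size, in at least 2 libraries, which left 39 of the 41 names among 15259 genes tested. PSMA8 was listed at 0 in all 16 libraries, and PSMB11, the thymus subunit, was above 0 in 3 libraries without passing the filter. The 39 were not near that limit: the lowest value of any of them in any library was 23.3 TPM, for PSME4. The names were chosen by symbol and not by how they moved, although earlier results on these libraries were known.

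The cells were A549, a human lung carcinoma line, made to overexpress the tetraspanin CD63 joined to Nluc luciferase, and every group, controls included, carried this fusion. They received the solvent DMSO or 1 of 3 compounds known here by the codes 5G6, 6D7 and 7F8, whose structures the labels do not give, and were harvested after 4 h or 48 h. A concentration of 4 µM is printed for every treatment, DMSO as well. Each of the 8 groups had 2 biological replicates according to the series design, so that p-values measure the spread between these 16 polyA RNA libraries of 1 line. Whether the line was 1 clone is not stated.

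The proteasome degrades proteins that carry ubiquitin chains. Its 20S core is a barrel of stacked rings, in which alpha subunits form the outer gates and beta subunits the inner chamber, with the cutting sites on PSMB5, PSMB6 and PSMB7. The 19S particle sits on the barrel end, where a ring of PSMC ATPases unfolds the substrate and PSMD subunits bind and trim the ubiquitin. Interferon can exchange catalytic subunits for inducible ones such as PSMB10, and PSME proteins form other caps. In many cells the transcription factor NFE2L1 raises proteasome genes together when proteasome activity falls.

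The cells matched their label: all 12 epithelial and A549 markers had a median of at least 1 TPM, with a summed level of 9408 to 30963 TPM. The sum was lower at 48 h with each compound (19083 and 22107 TPM with 5G6, 9408 and 22624 with 6D7, 13186 and 14891 with 7F8) than in DMSO (26717 and 30963), and the first 6D7 library stood apart from its replicate. EPCAM, 1 of the 12, was at 0.38 and 0.80 TPM with 7F8 at 48 h, beside 7.70 and 7.84 in DMSO. The part of these marker differences in the results below was not tested. Of 9 markers of leukocytes, fibroblasts, endothelium and red cells, 8 stayed below 1 TPM in every library (DCN at 0 in all), and the exception was CD14. Libraries held 6.10 to 8.86 aligned gigabases. Mitochondrial genes took 6.13 to 32.5% of the deposited TPM, least in both 6D7 libraries at 48 h, so they were dropped and TPM rescaled to the same sum before any comparison. Fold changes are differences of log2(TPM + 1) from a limma fit over all libraries, and a call means a p below 0.05 after Benjamini-Hochberg (BH) adjustment over all tested genes.

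On TPM without mitochondrial genes the 39 genes together made up a smaller share after 48 h with each compound than with DMSO, although for 6D7 the direction of their median turned on deposited TPM (0.14). At 48 h their summed level was 8787 and 8479 TPM in the DMSO libraries, 7285 and 6642 with 5G6, 7901 and 7061 with 6D7, and 6918 and 6807 with 7F8. All 6 compound libraries lay below both DMSO libraries, with group means at 80.7%, 86.7% and 79.5% of DMSO for 5G6, 6D7 and 7F8. After median-of-ratios scaling, which sets the typical gene near no change, the sums were 8462 and 7237 in DMSO, 7558 and 5965 with 5G6, 7996 and 6432 with 6D7, and 7673 and 6833 with 7F8. There each compound overlapped DMSO, with means at 86.1%, 91.9% and 92.4% of it. At 4 h the sums were 8644 and 9554 TPM in DMSO, 8107 and 8304 with 5G6, 8314 and 9179 with 6D7, and 8193 and 8809 with 7F8. The means were 90.2%, 96.1% and 93.4% of DMSO; 5G6 was below both DMSO libraries, while 6D7 and 7F8 overlapped DMSO (81.8%, 94.4% and 100.4% after median-of-ratios scaling). A sum over chosen genes was given no test, and in bulk RNA fewer cells of a kind and less RNA per cell cannot be told apart.

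**Figure D1:**
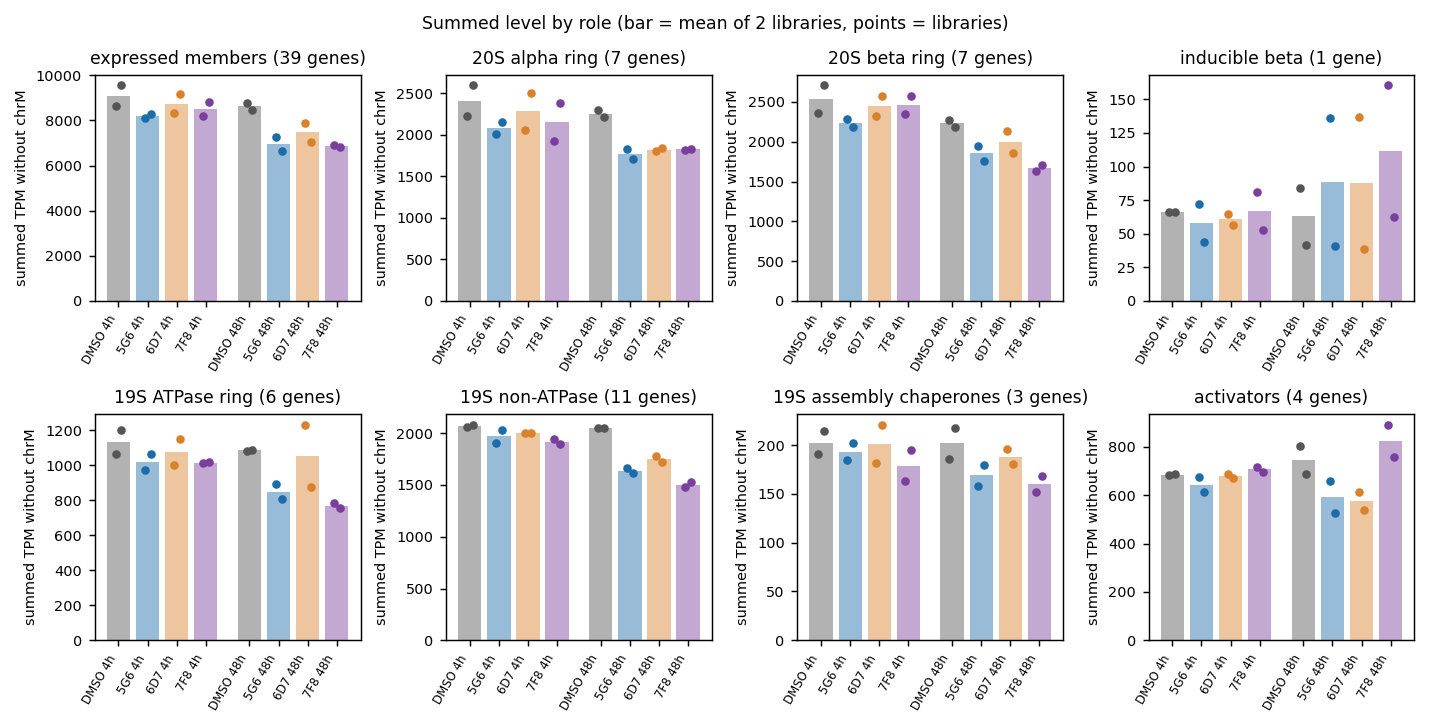
Summed TPM without mitochondrial genes for the 39 proteasome genes and for each role, by treatment and time; bars are the mean of 2 libraries and points the libraries. At 48 h the sum over 39 genes was 8787 and 8479 TPM in DMSO and at most 7901 TPM with a compound, a separation not seen after median-of-ratios scaling, while the 4 activators reached 892 and 759 TPM with 7F8 against 803 and 687 TPM in DMSO.

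The single genes were tested against DMSO of the same hour. At 48 h limma called 1 of the 39 with 5G6, 1 with 6D7 and 7 with 7F8, and every one of these calls was lower than DMSO. Of all 15259 tested genes 4.27%, 6.28% and 9.33% were called (2.23%, 3.8% and 6.92% called lower), so the single genes with 5G6 and 6D7 were a share near the background. Unadjusted p was below 0.05 in 17, 11 and 20 of the 39, and in 19.3%, 21.8% and 25.1% of all tested genes. The median log2 change of the 39 genes was -0.37 with 5G6, -0.28 with 6D7 and -0.42 with 7F8, beside -0.07, -0.06 and -0.19 over all tested genes. On deposited TPM with mitochondrial genes the 6D7 median turned to 0.14, with 0.29 for all tested genes, so only its place below the typical gene was common to both scales, and the 6D7 directions given below are on TPM without mitochondrial genes. After median-of-ratios scaling the medians were -0.28, -0.20 and -0.20, and 0, 1 and 0 of the 39 were called (3.85%, 6.17% and 7.54% of all tested genes).

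Separation of the 2 pairs of libraries gave a like description. Both compound libraries lay below both DMSO libraries in 30 of 39 genes for 5G6, 25 for 6D7 and 31 for 7F8, where 29.1%, 27.3% and 39.3% of all tested genes did so. On median-of-ratios values 21, 18 and 21 of the 39 did, against 25.1%, 24.2% and 27.6% of all genes. Both libraries above both DMSO libraries was seen in 1 of the 39 on TPM, PSME1 with 7F8, where 16.8% of all genes showed it. On median-of-ratios values 4 did with 7F8 (PSMA6, PSMD4, PSMD9 and PSME1) and 1 with 6D7 (PSME4), against 27.4% and 25.3% of all genes. The 3 compounds were set against the same 2 DMSO libraries at each hour, so their results are not independent of each other.

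**Figure D2:**
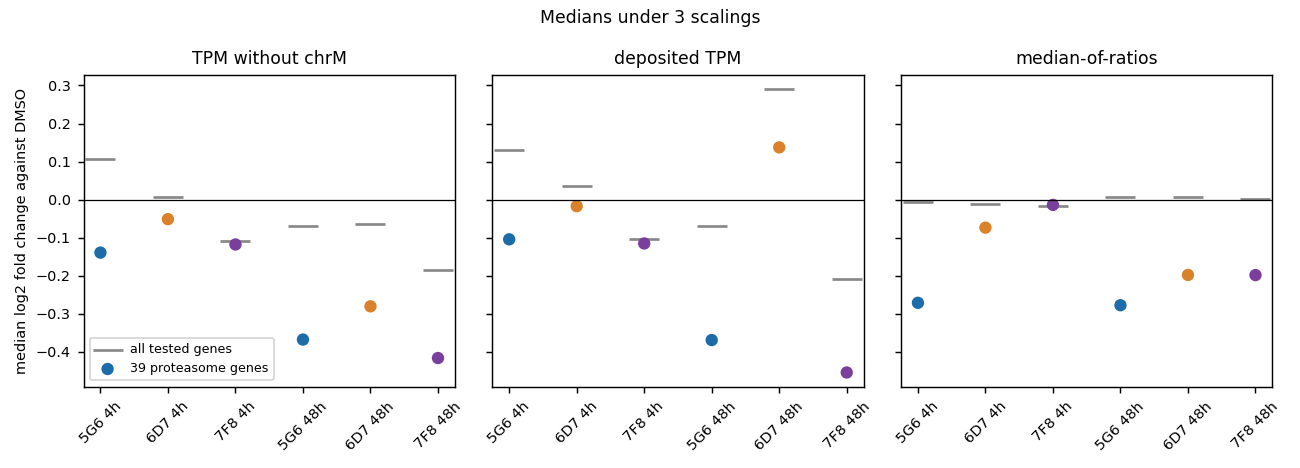
Median log2 fold change against DMSO of the 39 proteasome genes (coloured points) and of all tested genes (grey bars) for each compound and hour, under 3 scalings. With 6D7 at 48 h the proteasome median was -0.28 on TPM without mitochondrial genes, 0.14 on deposited TPM and -0.20 after median-of-ratios scaling, in each case below the median of all tested genes.

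At 4 h limma called 0 of the 39 genes with any compound, as it called 0 of all tested genes (0%). Unadjusted p was below 0.05 in 0 of the 39 with 5G6, 0 with 6D7 and 1 with 7F8, and in 503, 165 and 838 of all genes. Median-of-ratios scaling also called 0 of the 39 in each (0.0131%, 0% and 0% of all genes). The median change was -0.14 with 5G6, beside 0.11 for all genes, and 18 of 39 lay below both DMSO libraries where 7.91% of all genes did. With 6D7 it was -0.05 beside 0.01, with 6 of 39 below DMSO and a background of 9.28%. With 7F8 it was -0.12 beside -0.11, with 11 of 39 below and 23.7% of all genes, and 2 above where 10.1% of all genes were. After median-of-ratios scaling the 5G6 median was -0.27 and the 7F8 median -0.01. The smallest p with 5G6 was that of PSMD4, a ubiquitin receptor, at 179 and 183 TPM beside 209.6 and 252 in DMSO (-0.34 ± 0.17), followed by PSMA2 (-0.30 ± 0.17) and PSMB1 (-0.27 ± 0.16). With 6D7 it was PSMD6 (-0.17 ± 0.15), then PSMD12 and PSMC6. With 7F8 PSMD6 was followed by PSMD5 (-0.47 ± 0.23) and PSMD12 (-0.36 ± 0.18).

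**Figure D3:**
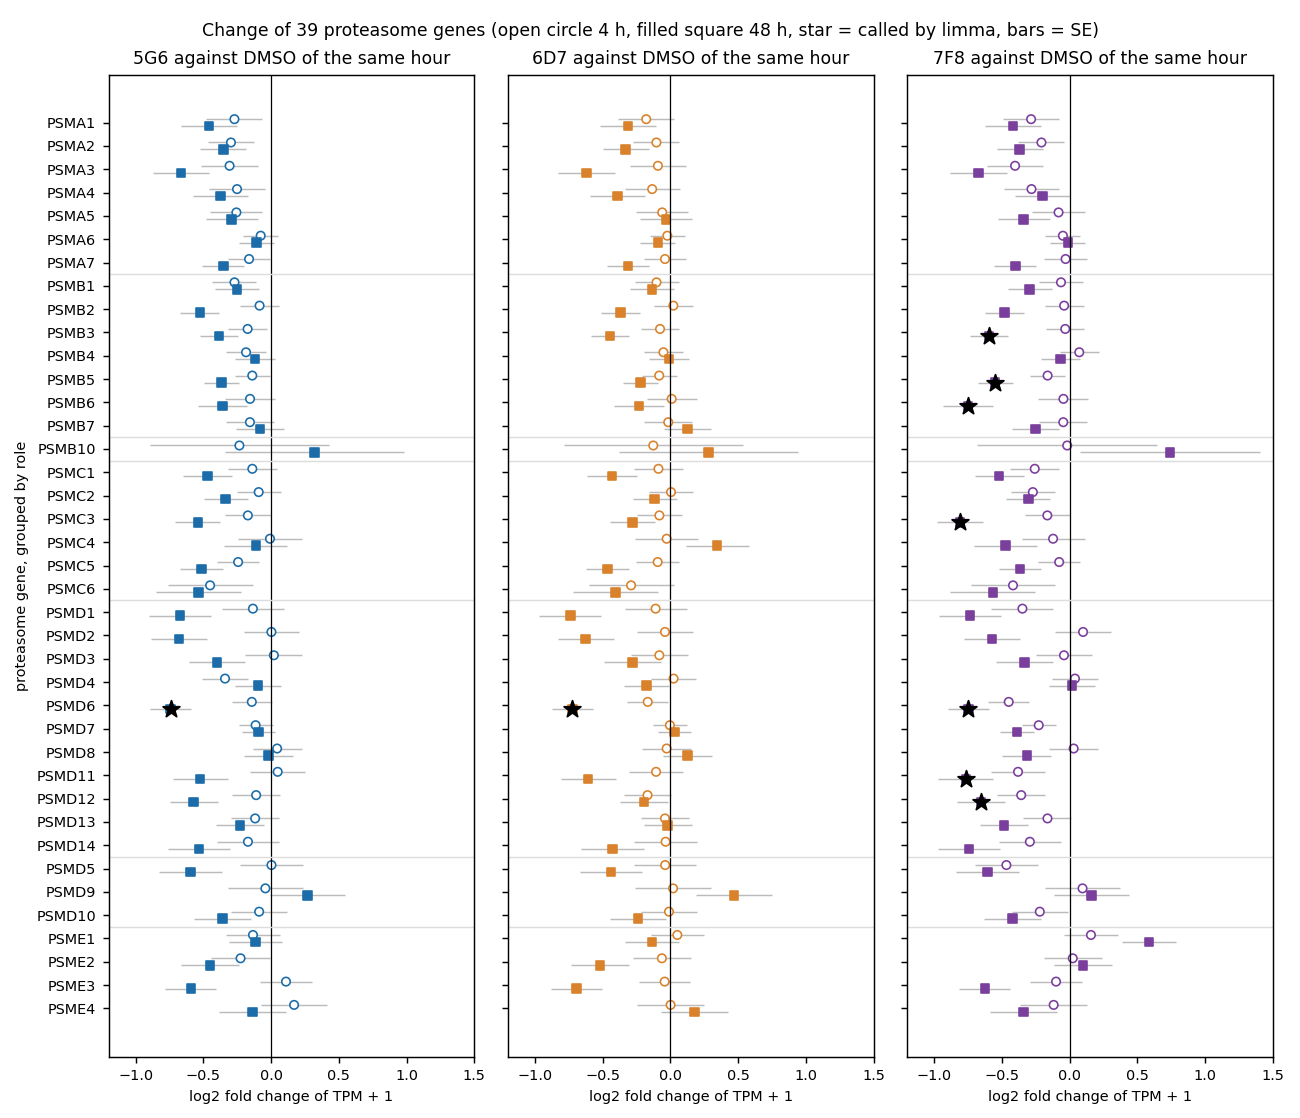
Log2 fold change of TPM + 1 against DMSO of the same hour for the 39 genes, grouped by role, with open circles for 4 h, filled squares for 48 h, bars for the standard error and stars for genes called by limma. Stars mark PSMD6 in all 3 panels and PSMB3, PSMB5, PSMB6, PSMC3, PSMD11 and PSMD12 with 7F8, and PSMB10 has the widest bars, with a standard error of 0.66.

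At 48 h limma called 3 of the 7 constitutive beta genes, which form the catalytic chamber, lower with 7F8. With 5G6 and 6D7 it called 0. Of all tested genes 6.92% were called lower with 7F8, 2.23% with 5G6 and 3.8% with 6D7. The log2 change was below 0 in 7 of the 7 with 5G6, 6 with 6D7 and 7 with 7F8. The summed level of the 7 constitutive beta genes was 2275 and 2190 TPM in DMSO, 1953 and 1756 with 5G6, 2141 and 1863 with 6D7, and 1631 and 1707 with 7F8. Their median log2 change was -0.36, -0.22 and -0.48, and unadjusted p was below 0.05 in 3, 2 and 4 of them. The 3 called with 7F8 were PSMB5 and PSMB6, which carry the chymotrypsin-like and caspase-like sites, and PSMB3, a structural subunit without a cutting site.

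PSMB5 (chromosome 14, 23016543 to 23035220, GRCh38, minus strand) stood at 277 and 302 TPM in DMSO at 48 h, 215 and 233 with 5G6, 245 and 251 with 6D7, and 189 and 205 with 7F8. All compound libraries lay below DMSO, and 7F8 was the lowest. With 7F8 the log2 change was -0.55 ± 0.13 (SE, n = 2 libraries a group), with a limma BH-adjusted p of 0.0230. PSMB6 (chromosome 17, 4796144 to 4798503, plus strand) had 431 and 446 TPM in DMSO, 365 and 320.3 with 5G6, 399 and 350.2 with 6D7, and 246 and 275 with 7F8. It fell by 0.75 ± 0.18 on the log2 scale with 7F8 (limma adjusted p = 0.0263). PSMB7, the trypsin-like subunit, was not called: 352 and 328 TPM in DMSO stood beside 300.4 and 271 with 7F8 and 446 and 308 with 6D7. The PSMB7 change with 6D7 was 0.13, and -0.14 without the first 6D7 library.

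PSMB3 (chromosome 17, 38752713 to 38764231, plus strand) had 491 and 439 TPM in DMSO at 48 h, 369 and 341 with 5G6, 343 and 338 with 6D7, and 288 and 326 with 7F8. The 6 compound libraries all lay below DMSO, and the 7F8 change was -0.60 ± 0.14 (limma adjusted p = 0.0230). Its promoter is shown because it holds 2 of the motifs searched in these genes, and because PSMB3 was among the lowered beta genes. The window is RefSeq's 250 bases before to 50 bases after the gene start, chr17:38752491-38752790, plus strand, GRCh38.p14, with motif matches in capitals (TGACTTTGC, an antioxidant response element core of the kind NFE2L1 binds, and CCAAT boxes, bound by NFY):
PSMB3: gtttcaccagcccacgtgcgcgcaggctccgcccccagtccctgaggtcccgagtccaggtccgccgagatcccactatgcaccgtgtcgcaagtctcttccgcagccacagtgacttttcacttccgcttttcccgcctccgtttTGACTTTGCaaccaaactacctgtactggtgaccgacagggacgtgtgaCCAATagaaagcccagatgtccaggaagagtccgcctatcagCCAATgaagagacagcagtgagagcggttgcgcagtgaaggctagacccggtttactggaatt

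Such windows were found for 34 of the 39 genes (PSMA7, PSMB1, PSMB6, PSMB7 and PSMD4 had no entry), and 4 motifs were searched on both strands. The antioxidant response element core TGACNNNGC was in 10 of 34 windows (29.4%), beside 15.2% of windows of tested genes and 13.6% of all windows. CCAAT was in 16 of 34 (47.1%, beside 36.4% and 35.7%). The interferon-stimulated response element core (GAAA, any 2 bases, GAAA) was in 5 of 34 (14.7%, beside 2.87% and 3.65%), those of PSMA4, PSMB4, PSMB10, PSME1 and PSME2. The interferon-gamma activated site TTCNNNGAA was in 4 of 34 (11.8%, beside 6.29% and 7.88%). A match is a match of letters, and binding was not measured here.

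Of the remaining constitutive beta genes, PSMB1 had 251 and 240.0 TPM in DMSO at 48 h and 192 to 245 TPM with the compounds, and 6D7 overlapped DMSO. PSMB4 had 409 and 375 TPM in DMSO at 48 h and 335 to 415 TPM over the 6 compound libraries, and overlapped DMSO with each compound. PSMB2 had 64.4 and 59.7 TPM in DMSO and 41.7 to 48.0 TPM with the compounds, below DMSO in all 6 libraries, with an adjusted p of 0.064 for 5G6, 0.155 for 6D7 and 0.058 for 7F8 in limma.

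Of the 7 alpha ring genes 0 were called with any compound at 48 h in limma or after median-of-ratios scaling, and the limma p was below 0.05 unadjusted in 3, 1 and 2 of them. Their sum was 2300.2 and 2208 TPM in DMSO, 1831 and 1710.4 with 5G6, 1799 and 1843 with 6D7, and 1820.4 and 1831 with 7F8. The medians of the log2 changes were -0.35, -0.31 and -0.37. On this scale all compound sums were below DMSO and close to each other, but the genes in them were not alike. PSMA3 had 254 and 237 TPM in DMSO, 158 and 151 with 5G6, 155 and 164 with 6D7, and 160.5 and 147 with 7F8 (limma adjusted p of 0.101, 0.104 and 0.067). PSMA7, the most abundant of the 39 by mean TPM, had 667 and 568 TPM in DMSO and 441 to 526 TPM with the compounds. PSMA6, a subunit of the same ring, was the steadiest of the 39 over all 16 libraries, from 389 to 460.1 TPM, a ratio of 1.18. Its level relative to other genes is less certain, since its read depth was low for that level. PSMA1, PSMA2 and PSMA4 lay below DMSO in all compound libraries, and PSMA5 with 5G6 and 7F8 alone. At 48 h the PSMA6 7F8 change was -0.01, with a 95% interval of -0.30 to 0.27.

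Among the 6 ATPases of the 19S base, PSMC3 was called lower with 7F8, and PSMC4 varied most between libraries with 6D7. PSMC3 (chromosome 11, 47418769 to 47426473, minus strand) had 209 and 191 TPM in DMSO at 48 h, 142 and 132 with 5G6, 194 and 139 with 6D7, and 114 and 114 with 7F8. The 7F8 level was 56.8% of DMSO, a log2 change of -0.81 ± 0.17 (limma adjusted p = 0.0144), while 6D7 overlapped DMSO. PSMC4 had 357 and 398 TPM in DMSO, 382 and 318 with 5G6, 645 and 356 with 6D7, and 293 and 250.3 with 7F8. Its highest value of all 16 libraries was the first 6D7 library, and the second lay just below DMSO, so the 6D7 change of 0.35 ± 0.23 was not called (limma adjusted p = 0.431). Without the first 6D7 library, the one with the low marker sum, the PSMC4 change was -0.08. Without the second 6D7 library PSMC4 was called (0.77), and the count of called genes for 6D7 went from 1 to 6. PSMC1 had 55.6 and 55.1 TPM in DMSO and 36.8 to 42.2 TPM with the compounds, and PSMC5 306 and 268 beside 183 to 225. Both were below DMSO in all 6 libraries, as were PSMC2 and PSMC6, and none of the 4 was called. The medians of the 6 ATPases were -0.49, -0.34 and -0.50 for 5G6, 6D7 and 7F8.

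PSMD6, a lid subunit of the 19S particle, was the gene called with each compound at 48 h. It lies on chromosome 3, 64010549 to 64024010, minus strand. Its level was 112 and 98.9 TPM in DMSO, 57.8 and 67.5 with 5G6, 58.4 and 68.6 with 6D7, and 61.4 and 63.1 with 7F8. All 6 compound libraries were well below DMSO and close together, at 59.5%, 60.3% and 59.1% of the DMSO mean. The log2 changes were -0.74, -0.72 and -0.75 (SE 0.15 each), with limma adjusted p-values of 0.0203, 0.0185 and 0.0129. At 4 h it was 109 and 112 TPM in DMSO, 101 and 99.4 with 5G6, 98.3 and 98.4 with 6D7, and 80.9 and 80.5 with 7F8, each below DMSO and none called. The 7F8 change at 4 h was -0.45 ± 0.15, with an unadjusted p of 0.011 and a limma adjusted p of 0.804. After median-of-ratios scaling the adjusted p at 48 h was 0.0507 for 5G6, 0.0427 for 6D7 and 0.0728 for 7F8. Its promoter window is shown because PSMD6 had the call in all 3 comparisons (chr3:64023445-64023744, minus strand, GRCh38.p14, RefSeq, whose start lies inside the span in the gene tables). The capitals mark the only match in it, a CCAAT box read on the opposite strand:
PSMD6: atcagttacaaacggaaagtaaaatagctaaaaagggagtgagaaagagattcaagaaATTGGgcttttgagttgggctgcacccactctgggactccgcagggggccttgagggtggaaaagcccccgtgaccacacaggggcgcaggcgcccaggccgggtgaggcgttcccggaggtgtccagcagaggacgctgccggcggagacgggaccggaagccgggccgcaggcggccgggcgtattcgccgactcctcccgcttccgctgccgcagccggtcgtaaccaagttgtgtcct

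The PSMD6 calls depended on the libraries in the fit. For 5G6 it was lost without either DMSO replicate (log2 change -0.65 without the first and -0.83 without the second) and without either 5G6 replicate (-0.63 and -0.85). For 6D7 it was lost without DMSO replicate 1 (-0.64) or 2 (-0.81) or 6D7 replicate 1 (-0.61), and held without 6D7 replicate 2. For 7F8 it was lost without DMSO replicate 1 (-0.66) or 7F8 replicate 1 (-0.73), and held without DMSO replicate 2 or 7F8 replicate 2. Such a fit leaves 1 library in an arm. On deposited TPM the 6D7 change of PSMD6 was -0.31 (limma adjusted p = 0.266) and no longer called. With the 48 h libraries alone the PSMD6 calls were lost for each compound (limma adjusted p of 0.105, 0.104 and 0.071).

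PSMD11 and PSMD12, also lid subunits, were called lower with 7F8. PSMD11 (chromosome 17, 32444463 to 32483319, plus strand) had 153 and 143 TPM in DMSO at 48 h, 98.9 and 106 with 5G6, 84.8 and 110.2 with 6D7, and 88.9 and 84.0 with 7F8. All compound libraries were below DMSO, and the 7F8 change was -0.77 ± 0.20 (limma adjusted p = 0.0356). PSMD12 (chromosome 17, 67337916 to 67366627, minus strand) had 55.0 and 56.7 TPM in DMSO, 33.4 and 41.6 with 5G6, 54.8 and 43.3 with 6D7, and 34.1 and 36.1 with 7F8. The 7F8 change was -0.66 ± 0.18 (limma adjusted p = 0.0394), and the first 6D7 library stood at the DMSO level.

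The other 7F8 calls were lost after median-of-ratios scaling, as that of PSMD6 was. There the adjusted p was 0.130 for PSMC3, 0.257 for PSMB5, 0.298 for PSMB3, 0.237 for PSMB6, 0.103 for PSMD11 and 0.202 for PSMD12. The direction stayed lower in each of the 12 alternatives tried. On deposited TPM PSMB5, PSMB6 and PSMD12 were also not called (limma adjusted p of 0.060, 0.061 and 0.071). The count of 7 became 0 without DMSO replicate 1 or 7F8 replicate 1, 1 without DMSO replicate 2, and 3 without 7F8 replicate 2.

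**Figure D4:**
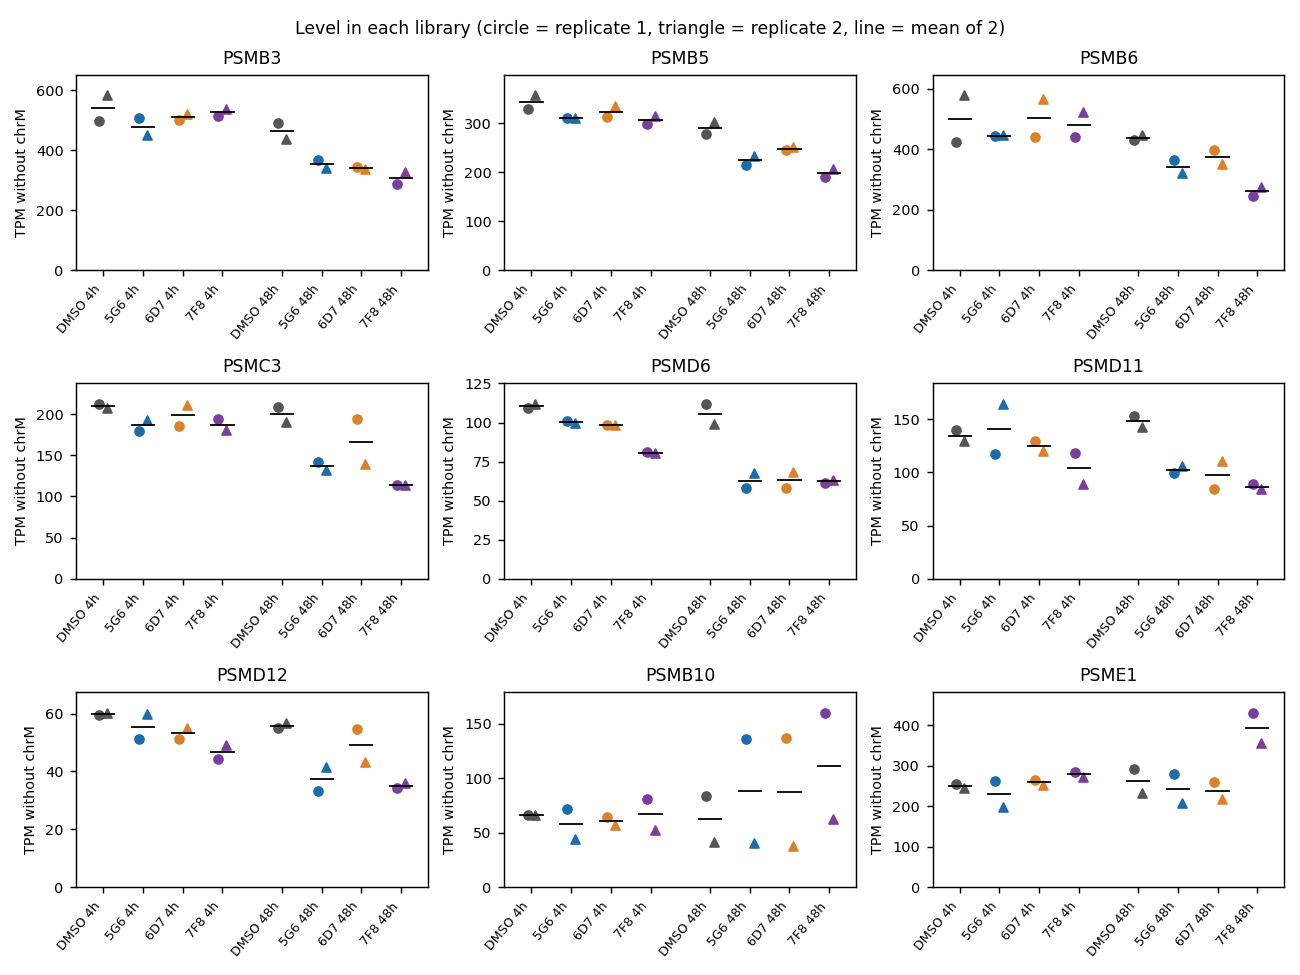
TPM without mitochondrial genes in each of the 16 libraries for the 7 genes called with 7F8 at 48 h and for PSMB10 and PSME1; circles are replicate 1, triangles replicate 2 and lines group means. PSMD6 was at 57.8 to 68.6 TPM with the compounds at 48 h against 98.9 and 112 TPM in DMSO, while replicate 1 of PSMB10 was above replicate 2 in 7 of 8 groups.

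The other 19S subunits ranged from clear separation to none. PSMD14, the lid enzyme that removes ubiquitin chains, had 190.5 and 204 TPM in DMSO, 124 and 149 with 5G6, 129 and 166 with 6D7, and 118 and 117 with 7F8. Every compound library was below DMSO, without a call (limma adjusted p of 0.227, 0.307 and 0.066). PSMD2, a scaffold of the base, had 216 and 242 TPM in DMSO, 128 and 157 with 5G6, 120.4 and 181 with 6D7, and 136 and 173 with 7F8 (adjusted p of 0.090, 0.096 and 0.106). PSMD4 had 209 and 199.7 TPM in DMSO and 209 and 204 with 7F8, a change of 0.02 with a 95% interval of -0.35 to 0.38. PSMD7, a lid subunit, had 193 and 199 TPM in DMSO, 186 and 181 with 5G6, 198.9 and 201 with 6D7, and 151 and 148 with 7F8, so that the 7F8 libraries stood apart from the rest without a call (limma adjusted p = 0.075). PSMD8 and PSMD13 were below DMSO in both 7F8 libraries and overlapped it with 6D7, while PSMD1 and PSMD3 were below it in all 6. Over the 11 subunits the medians were -0.52, -0.28 and -0.57.

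The chaperones that help the 19S base assemble are in the PSMD series under 3 names, and 0 of 3 were called with any compound at either hour (1, 0 and 1 at an unadjusted limma p below 0.05 at 48 h). PSMD5 had 38.4 and 55.9 TPM in DMSO at 48 h, 25.5 and 36.0 with 5G6, 30.9 and 37.2 with 6D7, and 28.8 and 31.4 with 7F8. PSMD10, also named gankyrin, had 104 and 126 TPM in DMSO and 76.7 to 103 TPM with the compounds. PSMD9 had 43.0 and 36.2 TPM in DMSO and 40.9 to 73.5 TPM with the compounds. So PSMD5 and PSMD10 were below DMSO in each compound library, and PSMD9 overlapped DMSO throughout on TPM.

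Of the 4 activator cap genes and the inducible subunit 0 of 5 were called, and PSME1 had its highest levels with 7F8. PSME1 and PSME2 form the interferon-inducible 11S cap. PSME1 (chromosome 14, 24136158 to 24138967, plus strand) had 292 and 234 TPM in DMSO at 48 h, 279 and 208 with 5G6, 259.9 and 217 with 6D7, and 431 and 357 with 7F8. Both 7F8 libraries were above every other 48 h library, at 150.0% of the DMSO mean. The log2 change was 0.59 ± 0.20 (0.80 after median-of-ratios scaling), and it was not called (limma adjusted p = 0.087). PSME2 had 307 and 238 TPM in DMSO, 237 and 164 with 5G6, 215 and 164 with 6D7, and 318 and 264 with 7F8, which overlapped DMSO. PSMB10 (chromosome 16, 67934506 to 67936850, minus strand) had 84.2 and 42.0 TPM in DMSO, 136 and 40.7 with 5G6, 137 and 38.3 with 6D7, and 160.4 and 62.5 with 7F8. Its replicates differed 2.01 to 3.57 times at 48 h, more than any compound mean did from DMSO, so no difference was resolved (7F8 change 0.74 ± 0.66, limma adjusted p = 0.534). Both promoters are shown because PSME1 and PSMB10 hold the interferon-stimulated response element core (GAAAGCGAAA in PSMB10, its reverse complement TTTCGCTTTC in PSME1), and PSME1 also TGACCCCGC. They lie at chr16:67936801-67937100 (minus strand) and chr14:24135944-24136243 (plus strand), GRCh38.p14, RefSeq:
PSMB10: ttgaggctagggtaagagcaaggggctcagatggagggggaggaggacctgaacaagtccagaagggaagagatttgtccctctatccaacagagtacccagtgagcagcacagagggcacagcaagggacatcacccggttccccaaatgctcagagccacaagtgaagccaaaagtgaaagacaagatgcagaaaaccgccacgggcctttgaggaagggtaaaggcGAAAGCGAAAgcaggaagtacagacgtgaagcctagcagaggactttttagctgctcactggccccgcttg
PSME1: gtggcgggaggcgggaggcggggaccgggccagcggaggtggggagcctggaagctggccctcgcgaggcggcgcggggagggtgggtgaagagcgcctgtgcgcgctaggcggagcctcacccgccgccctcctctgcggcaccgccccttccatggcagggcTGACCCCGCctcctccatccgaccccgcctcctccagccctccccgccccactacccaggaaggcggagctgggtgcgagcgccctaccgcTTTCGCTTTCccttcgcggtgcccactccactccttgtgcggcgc

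The interferon-responsive transcription factor gene IRF1, named here after its values were seen, was read beside them. IRF1 had 49.9 and 44.2 TPM in DMSO at 48 h, 94.4 and 43.7 with 5G6, 71.9 and 38.7 with 6D7, and 92.1 and 63.3 with 7F8. Both 7F8 libraries were above DMSO, although the highest value was in 5G6, where PSME1 overlapped DMSO. IRF1 was not called, and its part in the PSME1 values was not tested. The nuclear cap PSME3 had 174 and 174 TPM in DMSO, 115 and 115 with 5G6, 96.5 and 119 with 6D7, and 117 and 108 with 7F8, below DMSO in all 6 libraries (limma adjusted p of 0.107, 0.051 and 0.060). The large cap PSME4 had 30.1 and 41.1 TPM in DMSO and 25.1 to 40.2 TPM with the compounds, overlapping DMSO.

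The compounds were compared with each other at the same labelled dose and hour in 6 comparisons, and limma called 0 of the 39 genes in each. At 48 h 0.00655%, 0.288% and 0.478% of all tested genes were called for 5G6 against 6D7, 5G6 against 7F8 and 6D7 against 7F8, and unadjusted p was below 0.05 in 0, 3 and 10 of the 39 (2.03%, 9.10% and 12.9% of all genes). At 4 h the shares were 0%, 0.00655% and 0%, with 0, 1 and 0 of the 39 at an unadjusted p below 0.05 (1.10%, 10.2% and 5.80% of all genes). After median-of-ratios scaling 0 of the 39 were again called in each, where 0.00655%, 0.111% and 0.446% of all genes were called at 48 h. PSME1 had the smallest p of the 39 in both 48 h comparisons with 7F8. The difference was -0.70 (95% interval -1.13 to -0.27) for 5G6 against 7F8 and -0.72 (-1.15 to -0.29) for 6D7 against 7F8, with limma adjusted p-values of 0.210 and 0.153. PSME2 was -0.55 (-1.02 to -0.08) for 5G6 against 7F8 (adjusted p = 0.436). PSMC4 differed by 0.82 (0.31 to 1.33) between 6D7 and 7F8 (limma adjusted p = 0.164), and PSMD7 by 0.42 (0.14 to 0.69). For 5G6 against 6D7 the smallest p was that of PSMD12, -0.38 (-0.76 to 0.01).

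Of the cutting subunits, PSMB5 and PSMB6 had intervals above 0 for 6D7 against 7F8 without a call after adjustment. 6D7 against 7F8 at 48 h gave 0.33 (95% interval 0.04 to 0.61) for PSMB5, 0.52 (0.12 to 0.92) for PSMB6 and 0.38 (-0.01 to 0.76) for PSMB7, none called by limma (adjusted p of 0.31, 0.26 and 0.40). 5G6 against 6D7 gave -0.15 (-0.43 to 0.14), -0.13 (-0.53 to 0.27) and -0.21 (-0.59 to 0.17). At 4 h PSMD4 had the smallest p of the 39 in both 5G6 comparisons, with 179 and 183 TPM in 5G6, 214 and 254 in 6D7 and 207 and 269 in 7F8, and was not called (limma adjusted p of 1 and 0.480).

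Whether the difference from DMSO changed between the hours was tested directly. The limma fit called 0 of the 39 genes for each compound, where 0%, 0% and 0.00655% of all tested genes were called, and unadjusted p was below 0.05 in 3, 2 and 4 of the 39 for 5G6, 6D7 and 7F8 (7.65%, 7.92% and 8.83% of all genes). PSMD6 had the smallest p for 5G6 (-0.60 ± 0.21, limma adjusted p = 0.519) and for 6D7 (-0.56 ± 0.21, adjusted p = 0.523), and PSMB3 for 7F8 (-0.56 ± 0.20, limma adjusted p = 0.417). So the calls at 48 h and their lack at 4 h do not show that the response differed between the hours. The median over the 39 was -0.21, -0.20 and -0.26, beside -0.20, -0.07 and -0.08 over all genes.

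For DMSO alone, the limma fit called 0 of 15259 genes (0%) between 48 h and 4 h of DMSO, with an unadjusted p below 0.05 in 345 genes and in 0 of the 39. The count was again 0 after median-of-ratios scaling. The median of the 39 was -0.10 beside 0.18 over all genes, and -0.29 beside 0.01 after that scaling. At 48 h 9 of 39 lay below both 4 h libraries (7.21% of all genes) and 5 above (28.7% of all genes). On median-of-ratios values 14 lay below and 0 above (16.3% and 16% of all genes). PSMB5 had the smallest p, with 329 and 356 TPM at 4 h and 277 and 302 at 48 h, a change of -0.24 ± 0.13.

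The machinery around the proteasome was read from 5 further lists of 64 genes, all of them tested. In the 6 comparisons with DMSO the calls were those of SQSTM1 at 48 h, a ubiquitin-binding autophagy receptor on the list of genes known to rise when the proteasome is inhibited. SQSTM1 had 709.7 and 678 TPM in DMSO, 2172 and 1653 with 5G6, 2597 and 1926 with 6D7, and 2663 and 3036 with 7F8. Every compound library was over 2 times DMSO, and the log2 changes were 1.45, 1.69 and 2.03 (SE 0.22 each, limma adjusted p of 0.0086, 0.0044 and 0.0015, and below 0.05 after median-of-ratios scaling). The other 9 genes of that list were not called. Its heat shock gene HSPA1A, named here for its role in protein folding stress, had 576 and 268 TPM in DMSO at 48 h and 241 to 1096 TPM with the compounds, overlapping throughout. Others were named after their values were seen, and of these DDIT3 did not overlap DMSO with any compound. DDIT3 had 32.7 and 29.3 TPM in DMSO, 134 and 99.8 with 5G6, 139 and 124 with 6D7, and 65.1 and 35.7 with 7F8. HMOX1 had 257 and 238 TPM in DMSO, 269 and 299 with 5G6, 220 and 450 with 6D7, and 108 and 106 with 7F8. HMOX1 thus overlapped DMSO with 6D7, and lay above it with 5G6 and below it with 7F8. BAG3 of the same list had 80.5 and 86.6 TPM in DMSO, 70.7 and 61.8 with 5G6, 120 and 60.6 with 6D7, and 69.5 and 53.4 with 7F8. It was thus below DMSO with 5G6 and 7F8. The log2 change was below 0 in 4, 1 and 4 of the 10 for 5G6, 6D7 and 7F8. Unadjusted limma p was below 0.05 in 2, 2 and 3 of the 10 (19.3%, 21.8% and 25.1% of all tested genes). The list median was 0.19, 0.31 and 0.30 at 48 h.

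NFE2L1, the proteasome gene activator, had 125 and 178 TPM in DMSO at 48 h, 179 and 267 with 5G6, 211 and 297 with 6D7, and 115 and 174 with 7F8. Both 5G6 and 6D7 libraries were above both DMSO libraries and 7F8 overlapped them. The 6D7 change of 0.74 ± 0.28 was not called (limma adjusted p = 0.149), but was after median-of-ratios scaling (0.82, adjusted p = 0.0473). NFE2L2, which binds the same element, had 63.8 and 72.7 TPM in DMSO and 64.4 to 85.9 TPM with the compounds. Over the 18 genes of proteasome gene transcription the medians were 0.06, 0.18 and 0.01, beside -0.07, -0.06 and -0.19 over all tested genes. Of the 18, 0 were called, and 1, 5 and 1 had an unadjusted limma p below 0.05 (19.3%, 21.8% and 25.1% of all tested genes).

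Partners of the assembled particle had no called gene, where 4.27%, 6.28% and 9.33% of all tested genes were called at 48 h. Over all tested genes the 48 h medians were -0.07, -0.06 and -0.19 for 5G6, 6D7 and 7F8. Unadjusted limma p was below 0.05 in 19.3%, 21.8% and 25.1% of all tested genes. The 6 assembly chaperones outside the PSMD series had medians of -0.37, -0.47 and -0.43 at 48 h for 5G6, 6D7 and 7F8, and 0 of 6 were called (2, 1 and 3 at an unadjusted limma p below 0.05). Of these POMP, which helps close the beta rings, had 161 and 142 TPM in DMSO and 125 to 183 TPM with the compounds. The 17 bound cofactors had medians of -0.23, -0.21 and -0.33, again with 0 called (2, 0 and 4 at an unadjusted limma p below 0.05). After median-of-ratios scaling the cofactor medians were -0.14, -0.12 and -0.12, and those of the 6 assembly chaperones -0.28, -0.39 and -0.21. USP14, a deubiquitinase on the 19S base, had 40.5 and 53.8 TPM in DMSO and 30.8 to 41.2 TPM with the compounds. The ubiquitin receptor ADRM1 had 251 and 190.2 TPM in DMSO and 144 to 233 TPM with the compounds, and the inhibitor PSMF1 had 43.9 and 47.4 TPM beside 35.6 to 42.3 TPM. PSMF1 was thus below DMSO in all 6 libraries on TPM, with log2 changes of -0.23, -0.17 and -0.13. Beside the all-gene medians of -0.07, -0.06 and -0.19, its 7F8 change was smaller than that of the typical gene. The 13 genes of ubiquitin supply and p97 had medians of -0.19, -0.07 and -0.12, which median-of-ratios scaling turned to 0.01 for 6D7 and 0.07 for 7F8, with 0 called and 1 of 13 at an unadjusted limma p below 0.05 for each compound.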

How the data were processed

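Expression was read from 1 StringTie-style gene table per library. Per the file headers, TPM values are the authors' transcripts-per-million values, scaled to a fixed sum with mitochondrial genes included, and the deposited FPKM values are scaled by length and sequenced fragments. Coverage, per the file headers, is the average read depth over a gene and is not scaled between libraries. The submitters' processing notes name STAR 2.6.1a, featureCounts 1.6.3, StringTie 2.0 and GRCh38, and their roles are not given in the sources used here. Per the labels' protocols, TRIzol RNA (DNase I treated) went into NEBNext Ultra libraries. Strandedness is not given in the sources used here, so reads of overlapping or antisense genes could not be told apart. Read counts were not used here. Depth in gigabases came from coverage and FPKM.

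Rows of 1 gene name were summed, chrM was dropped, and TPM rescaled to the sum it had before. Genes reaching 1 TPM in 2 or more libraries were fitted with limma 3.58.1 (R 4.3.3) on log2(TPM + 1), a scale that understates changes of low genes. The fit had 8 group means, 8 residual degrees of freedom (median prior 3.754) and a mean-variance trend. Tests were two-sided, BH-adjusted within each of 16 comparisons, and checked on simulated data. There, of 100 genes lowered at each size in 5G6 at 48 h, 0 were called at a log2 fall of 0.5. At a fall of 1, 24 were called, and at a fall of 2, 84, with 5 unchanged genes called. Fewer genes changed in the simulation than were called here against DMSO at 48 h, and its noise was independent between libraries. Its shares called therefore need not carry over, and PSMB5 was called here with 7F8 at -0.55. With 2 libraries a group and changes of the sizes given here, the lack of a call does not show a lack of change. PSMA4, PSMA6 and PSMB5 had coverage under 50% of what their FPKM implies, lowest in PSMA6 at 6.33 to 6.58%. Their levels relative to other genes are thus less certain. The ratio of coverage to FPKM changed at most 1.16 times within any of the 39 genes across libraries. Intervals are at 95% from the fit.

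The members and lists were chosen with earlier results of these data known. Named were PSMB5, PSMB6, PSMB7, PSMB10, PSMA7, PSMC4, PSMD2, PSMD4, PSMD14, PSMD5, PSMD9, PSMD10, PSME1 to PSME4, called genes (up to 6 each way), otherwise the 3 with the smallest p, and from the lists called genes, NFE2L1, NFE2L2, POMP, PSMF1, USP14 and ADRM1. Other genes were named after their values were seen. Alternatives were a pseudocount of 0.1, no filter, deposited TPM, median-of-ratios scaling, no trend, 1 hour alone, a replicate block and leaving out each library; coverage in place of TPM was added after seeing the data. Tables were read with Python 3.11.15 and pandas 2.3.3. Promoters came from RefSeq (GRCh38.p14).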

Additional observations from a re-analysis of the deposited data

How the results depend on the processing

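Why a result moved between settings was not tested. Fits with fewer libraries show only how far a result depends on the libraries kept. With median-of-ratios scaling the log2 medians against DMSO were -0.27 for 5G6 and -0.014 for 7F8 at 4 h, and -0.28, -0.20 and -0.20 for 5G6, 6D7 and 7F8 at 48 h, with 0 genes called for 5G6 and 0 for 7F8. With coverage in place of TPM they were -0.27 and -0.016, then -0.27, -0.20 and -0.21, and 1 gene was called for 7F8 (1142 of all genes). Between compounds these settings gave in turn -0.21 and -0.21 (5G6 against 6D7), -0.23 and -0.25 (5G6 against 7F8) and -0.050 and -0.066 (6D7 against 7F8) at 4 h, and -0.084 and -0.094 (5G6 against 7F8) and 0.017 and 0.0043 (6D7 against 7F8) at 48 h. For 48 h minus 4 h they gave 0.010 and 0.0051 (5G6), -0.095 and -0.12 (6D7) and -0.15 and -0.16 (7F8), and for DMSO over time -0.29 and -0.27. Deposited TPM turned 6D7 against DMSO at 48 h to 0.14 with 0 called, and gave -0.54 for 5G6 against 6D7, 0.61 with 13 called (2518 of all genes) for 6D7 against 7F8, 0.18 for 6D7 over time and -0.18 for DMSO over time. No filter called 2 genes for 5G6 at 48 h, no trend 2 for 7F8, and the 48 h libraries alone 0, 0 and 0 for the compounds. Replicate 1 deviations correlated at 0.0558 to 0.600 between the 28 pairs of groups (25 above 0.1). The pairs at or below 0.1 were all between hours. Within an hour the correlation was 0.36 to 0.60 over all genes. Over the proteasome genes it was 0.66 to 0.89 between groups at 48 h, and 0.16 to 0.90 at 4 h. Libraries of the same replicate number thus tended to deviate alike within an hour, and the main fit holds no term for this. However, the labels do not say that a number marks a shared culture. With a replicate block 12, 6 and 19 genes were called at 48 h for 5G6, 6D7 and 7F8. The 19 were 18 lower and PSME1 higher (limma adjusted p = 0.0130). PSME1 was also the 1 gene called in each of 5G6 and 6D7 against 7F8. The share of all tested genes called under the block is not given here, so these counts have no background beside them. The same holds for the counts with no filter, no trend, the 48 h libraries alone and 1 library left out. Leaving out 1 library gave 0 to 0 genes called for 5G6, 0 to 6 for 6D7 and 0 to 3 for 7F8 at 48 h, and 0 to 3 for 6D7 against 7F8. The 48 h medians then ran from -0.40 to -0.36, -0.29 to -0.24 and -0.47 to -0.38, and the 4 h medians from -0.21 to -0.08, -0.14 to 0.018 and -0.18 to -0.06. Over time they ran from -0.29 to -0.13 (5G6), -0.37 to -0.074 (6D7), -0.31 to -0.19 (7F8) and -0.16 to -0.0063 (DMSO). Between compounds at 4 h they ran from -0.15 to -0.0038 (5G6 against 6D7), -0.06 to 0.04 and 0.02 to 0.13. For 7F8 at 48 h no filter called 9 and deposited TPM 5 (1297 of all genes on deposited TPM). Counts and medians under the other settings, 330 values with these included, stayed within 1.5 times the count or moved less than the replicate spread.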
